A study of Mus musculus with 96 samples.

Results

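Nucleotide excision repair is the pathway that removes bulky DNA lesions, among them the pyrimidine dimers that ultraviolet light makes in skin. In its global branch the lesion is found by the XPC complex and by the DDB1 and DDB2 proteins, and in the branch coupled to transcription by a stalled RNA polymerase. Both branches then use the TFIIH helicases, XPA, the nucleases XPG and XPF-ERCC1, and a polymerase and ligase that fill the gap. The genes described here are 10 members of the pathway, chosen by name, of 22497 genes in the deposited tables. They are Xpc, Rad23b, Ddb1 and Ddb2 for damage recognition, Xpa for verification and assembly, Ercc2 and Ercc3 for the XPD and XPB helicases of TFIIH, and Ercc1, Ercc4 and Ercc5 for the nucleases. A further 39 genes of the pathway were listed for comparison.

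Polyadenylated RNA from back-skin epidermis was sequenced in female C57BL/6 mice aged 8 weeks that had been in constant darkness for 156 to 176 h. The 96 libraries come from 4 genotypes at 6 circadian times (CT) 4 h apart, with 4 mice per genotype and time. All genotypes differ in where Arntl, which encodes the clock activator BMAL1, can be expressed. WT mice were Arntl wt/wt with both K14Cre and Syt10-Cre. The other genotypes carried Arntl stopFL/stopFL, an allele blocked until Cre removes the block. RERE mice had K14Cre, driven by a keratin 14 promoter active in epidermal keratinocytes, together with Syt10-Cre, which acts in the central clock of the brain. Only K14Cre was present in EpiRE and only Syt10-Cre in BRE, so that no keratinocyte Cre lifts the block in the epidermis of BRE mice. Reads assigned to Arntl were nonetheless found in BRE, with a mean of 3.88 log2 RPKM beside 3.88 in WT. The time means of Arntl ran from 3.81 to 3.95 in BRE and from 2.75 to 4.75 in WT. Whether this RNA yields BMAL1 in BRE was not tested. WT, RERE and BRE mice share Syt10-Cre, and WT, RERE and EpiRE mice share K14Cre.

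Read totals per library ranged from 11.1 to 19.9 M (median 15.2 M). All 7 listed basal keratinocyte markers and the 6 suprabasal markers in the tables had a mean of at least 0 log2 RPKM in every genotype, whereas none of the 6 fibroblast, 4 endothelial and 4 adipocyte markers did. Markers of T cells, Langerhans and myeloid cells, sebaceous gland and hair follicle were present, as were 1 of 4 muscle markers in every genotype and, of 5 melanocyte markers, 2 in WT and RERE and 1 in EpiRE and BRE. In bulk tissue, fewer cells of a type and less RNA per cell cannot be told apart. The clock repressor gene Nr1d1 differed by 4.07 log2 units between its highest and lowest time means in WT. RERE had 3.83, EpiRE 1.16 and BRE 0.43. Among libraries of the same time the SD of Nr1d1 was largest in EpiRE (0.65), beside 0.41 in WT, 0.39 in RERE and 0.29 in BRE. The SD of the clock genes Dbp (0.98) and Npas2 (0.52) was also largest in EpiRE. For Per2 and Arntl it was largest in RERE (0.79 and 0.27), beside 0.75 and 0.25 in EpiRE. The part of this spread in the EpiRE rhythm fits was not tested. None of these clock genes was called rhythmic in EpiRE by the test described below (limma, adjusted p from 0.334 to 0.428). The EpiRE library of CT0 replicate 1 stood apart from its group, with a distance 1.73 times the median of all libraries; without it the counts of members called in EpiRE and its contrasts below were still 0. The CT of the EpiRE and BRE libraries rest on the column names of 1 kind of deposited table.

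The 5′ flanks of the 2 genes that varied with time in WT and matched the RefSeq promoter table are shown because clock factors act on promoters. A short stretch of Ddb1 is shown because it holds the only match to a clock motif found. The table (RefSeq, GRCm38.p6) held 7 of the 10 members, and Xpc, Ddb2 and Ercc3 had no entry. Windows of 300 bases, 250 before and 50 after the gene's start, were searched on both strands for CACGTG (E-box), CACGTT (a variant E-box), TTATGTAA (D-box) and AGGTCA (the core of the element bound by ROR and REV-ERB). Among 32544 promoters, 7.2% held CACGTG, 4.7% CACGTT, 0.9% TTATGTAA and 16.2% AGGTCA. The letters printed for Xpa and Ercc2 lie outside their GENCODE gene models. Capitals mark the match in Ddb1, which is CACGTT read on the reverse strand and begins 22 bases before the RefSeq start. The GENCODE model of Ddb1 (chr19:10605327-10629819) starts further upstream, so the Ddb1 stretch lies inside that model and is not a flank of it.
Xpa, chr4:46196312-46196561, minus strand: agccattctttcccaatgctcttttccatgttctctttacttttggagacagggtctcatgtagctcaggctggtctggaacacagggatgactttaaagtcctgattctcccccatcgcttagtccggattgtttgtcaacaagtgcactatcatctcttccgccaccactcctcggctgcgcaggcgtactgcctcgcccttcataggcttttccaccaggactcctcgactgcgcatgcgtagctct
Ercc2, chr7:19381767-19382009, plus strand: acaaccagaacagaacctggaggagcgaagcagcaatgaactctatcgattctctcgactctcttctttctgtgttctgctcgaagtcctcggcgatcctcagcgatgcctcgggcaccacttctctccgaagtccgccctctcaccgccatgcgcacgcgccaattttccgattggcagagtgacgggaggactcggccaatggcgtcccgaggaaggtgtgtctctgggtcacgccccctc
Ddb1, chr19:10605563-10605592, plus strand: tctctggcctgcAACGTGtctcaggggcgg
The windows of Xpa, Ercc1, Ercc2, Ercc4, Ercc5 and Rad23b held none of the 4 motifs, which says only that these letters are absent from these windows. Ddb1, the gene with the match, was not called rhythmic in any genotype by the test described next.

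All 10 genes were expressed in epidermis above 1 RPKM, the level needed for testing. Levels are log2 RPKM, reads scaled by gene length and library total, and are therefore comparable between genes. Ddb1, whose product is also the adaptor of CUL4 ubiquitin ligases, was the highest, at 6.98 ± 0.06 (SD, n = 24) in WT. Rad23b, which stabilises XPC, followed at 5.62 ± 0.09 and Xpc at 4.02 ± 0.22. Ercc2 (3.59 ± 0.17), Ercc5 (3.58 ± 0.13), Ercc1 (3.55 ± 0.16) and Ercc3 (3.54 ± 0.11) lay within their spread of each other. Xpa stood at 2.97 ± 0.30, Ercc4 at 2.52 ± 0.11 and Ddb2 at 2.30 ± 0.28. The 2 partners of the damage sensor, Ddb1 and Ddb2, were thus at opposite ends of the order. Ddb1 was above Rad23b, Rad23b above Xpc and Xpc above Ercc2 in 24 of 24 WT libraries, while Ercc2 was above Ercc5 in 11 of 24 and Ercc4 above Ddb2 in 20 of 24. The 3 highest and the 3 lowest genes held these ranks in all 4 genotypes.

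**Figure D1:**
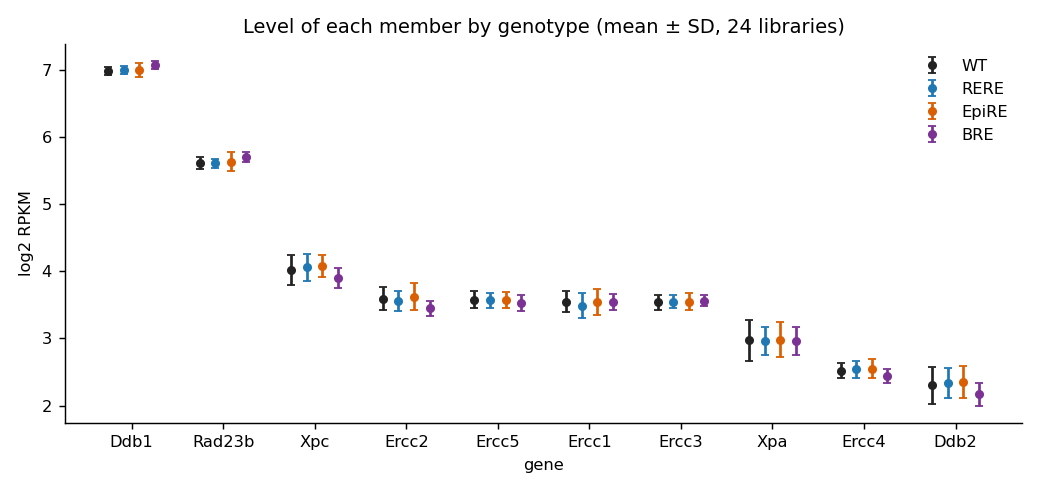
Mean level (log2 RPKM) of each gene in each genotype; points are means over 24 libraries and bars are SD. Ddb1 lies near 7 and Ddb2 near 2.3 in WT, and the genotypes of a gene lie much closer together than these genes do.

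Rhythm was tested by fitting a 24 h cosine to the 24 libraries of a genotype, with limma's moderated F test adjusted over all genes tested and called at an adjusted p under 0.05. The amplitude is the height of the fitted curve above its mean, in log2 units. In WT 3 of the 10 genes were called rhythmic, Xpc, Ddb2 and Ercc2, where 33.1% of all genes tested were called, so the share is near that of genes at large. The median fitted amplitude was 0.078 over the 10 genes and 0.119 over all genes tested. In RERE only Ddb2 was called, against 19.4% of all genes. None was called in EpiRE, where limma called 0% of genes and 0 of the 10 had an unadjusted p under 0.05, beside 1397 of all 11061 genes tested, or in BRE, where 1.14% of genes were called and 2 of the 10 had an unadjusted p under 0.05, beside 2071 of all 10970 genes tested. limma-voom on recovered reads also called 0 members in EpiRE and in BRE. Whether the 10 genes cycled within single EpiRE mice was not tested.

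Ddb2 (ENSMUSG00000002109; mm10 chr2:91211572-91236982, minus strand), the damage-binding subunit that recognises ultraviolet photoproducts, had the largest amplitude of the 10 in WT. Its WT values were 1.69, 1.84, 1.71 and 2.09 at CT0, then 2.31, 2.37, 2.2 and 2.43 at CT4, and 2.5, 2.1, 2.47 and 2.65 at CT8. They were 2.66, 2.41, 2.57 and 2.43 at CT12, then 2.49, 2.54, 2.37 and 2.61 at CT16, and 2.35, 2.22, 2.24 and 1.96 at CT20. All CT0 libraries lay below all CT12 libraries. The fitted amplitude was 0.30 ± 0.053 (SE, n = 24) with a peak at CT 11.8 ± 0.69 h (limma, adjusted p = 0.000799), a 1.51-fold change from trough to peak. The model of Ddb2 overlaps that of Acp2, an acid phosphatase of the lysosome, on the opposite strand over 2527 bases, and no source used here says if reads were assigned by strand. Acp2 averaged 2.23 log2 RPKM over all libraries, near the level of Ddb2. In WT its time means were lowest at CT0 (2.02) and highest at CT16 (2.38), and its fitted amplitude was 0.096 ± 0.059 with a peak at CT 12.3 h (limma, adjusted p = 0.376, and 0.362 with CT as a factor). In RERE they were lowest at CT0 (2.15) and highest at CT16 (2.48), the times at which Ddb2 was lowest and highest there (limma, adjusted p = 0.327 for the cosine). In EpiRE the Acp2 means from CT0 to CT20 were 2.08, 2.42, 2.07, 2.37, 2.48 and 2.27 (limma, adjusted p = 0.664 for the cosine). The Ddb2 means in EpiRE were 2.08, 2.46, 2.23, 2.43, 2.54 and 2.38 at the same times. In BRE the mean of Acp2 was lowest at CT12 (2.09), where that of Ddb2 was highest (2.27). The part of Acp2 in the Ddb2 values was not tested.

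In RERE, Ddb2 was again lowest at CT0, at 1.99, 1.91, 2.26 and 2.16, and highest at CT16, at 2.58, 2.84, 2.35 and 2.42, with no overlap between these times. Its amplitude was 0.23 ± 0.045 and its peak at CT 13.5 ± 0.75 h (limma, adjusted p = 0.00314). In EpiRE the CT0 values were 1.94, 1.82, 2.02 and 2.54 and the CT16 values 2.37, 2.60, 2.53 and 2.68, which overlap. In BRE the libraries of the lowest and highest times, CT0 (mean 2.11) and CT12 (mean 2.27), did not overlap, though no rhythm was called there. The lowest and highest times were picked from these same values, so a lack of overlap is no test of rhythm. The fitted amplitude was 0.13 ± 0.066 in EpiRE (limma, adjusted p = 0.587), while in BRE it was 0.066 ± 0.049 (0.662). For Ddb2 the difference in rhythm itself did not pass in any contrast (limma, adjusted p = 0.109 for BRE against WT, 0.335 for EpiRE against WT and 0.8 for RERE against WT).

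Xpc (ENSMUSG00000030094; mm10 chr6:91489305-91515888, minus strand), which binds the distortion that a lesion makes in the helix and starts global repair, peaked earliest of the 3 genes called in WT. Its WT values were 4.04, 3.94, 3.75 and 3.83 at CT0, then 4.19, 4.34, 4.41 and 4.41 at CT4, and 4.23, 4.06, 4.21 and 4.17 at CT8. They were 4.01, 4.13, 3.83 and 4.09 at CT12, then 4.03, 4.04, 3.65 and 3.79 at CT16, and 3.82, 4.02, 3.88 and 3.59 at CT20. The 4 libraries of CT4 lay above all libraries of CT0, CT12, CT16 and CT20. The amplitude was 0.23 ± 0.043 with a peak at CT 6.37 ± 0.71 h (limma, adjusted p = 0.00118), a 1.38-fold change from trough to peak.

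The highest time mean of Xpc was at CT8 in RERE and BRE and at CT16 in EpiRE, not at CT4. At CT4 the values were 3.99, 3.92, 4.11 and 3.92 in RERE, 4.25, 3.8, 3.98 and 4.18 in EpiRE, and 3.93, 3.82, 4.01 and 3.82 in BRE. RERE and BRE libraries at CT4 lay below every WT library of that time, and the EpiRE range overlapped it. CT4 was taken because Xpc was highest there in WT, so this comparison is no test of a difference. The fitted amplitude was 0.084 ± 0.055 in RERE, and EpiRE and BRE had 0.022 ± 0.047 and 0.015 ± 0.044. The test of the difference in rhythm missed the threshold against BRE (limma, adjusted p = 0.068), EpiRE (adjusted p = 0.0907) and RERE (adjusted p = 0.583, unadjusted p = 0.0197), so a loss of the Xpc rhythm is not established. The BRE contrast passed with the genotypes scaled by the median of ratios (adjusted p = 0.0394) and without replicate 2 (adjusted p = 0.0228). It also passed without any of 8 single libraries, BRE CT8 replicates 1 and 2, CT12 replicate 2 and CT16 replicate 4 and WT CT8 replicate 2, CT16 replicates 1 and 2 and CT20 replicate 2 (0.0322 to 0.049).

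**Figure D2:**
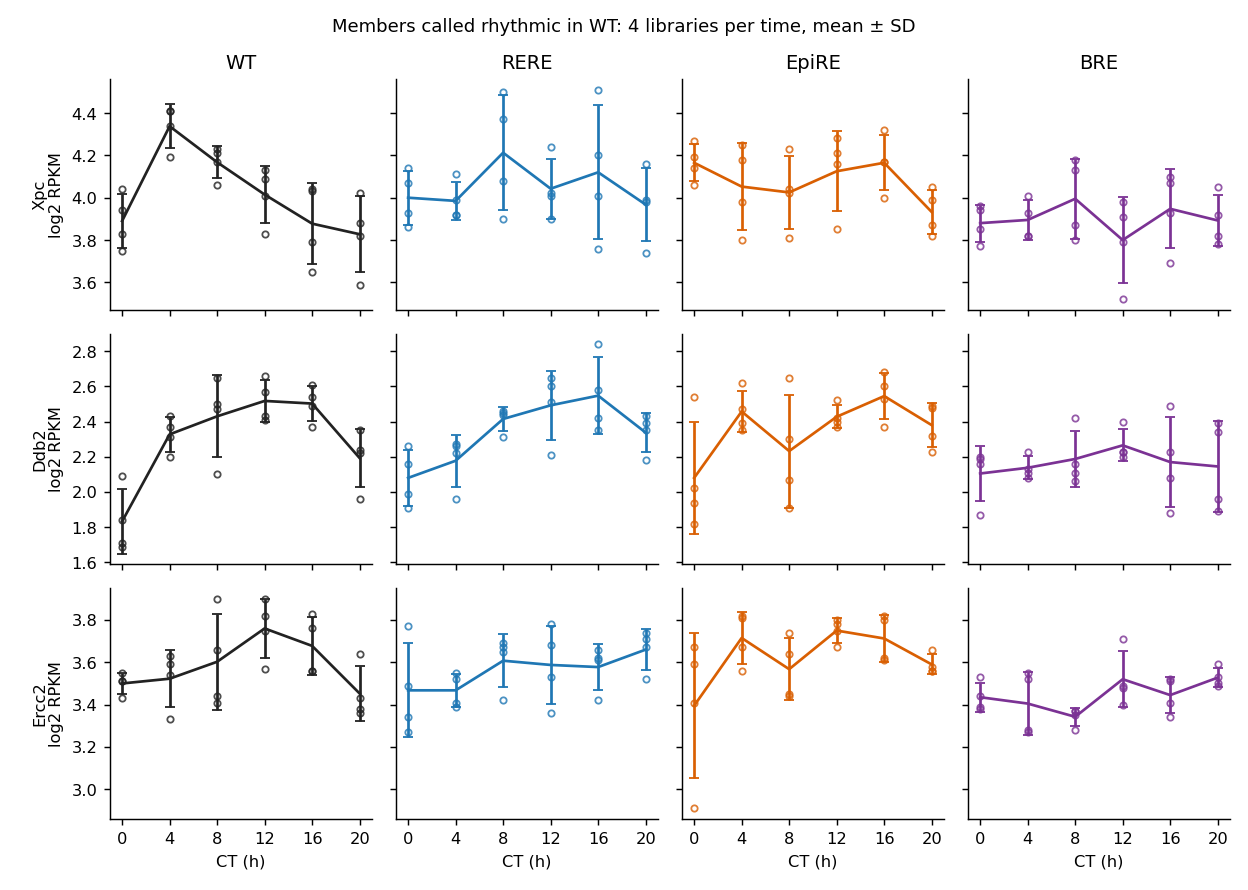
Log2 RPKM of Xpc, Ddb2 and Ercc2 against CT (h) in the 4 genotypes; open points are libraries, 4 per time, and lines with bars are means ± SD. In WT, Xpc is highest at CT4 (4.19 to 4.41) and Ddb2 is lowest at CT0 (1.69 to 2.09).

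Ercc2 (ENSMUSG00000030400; mm10 chr7:19382010-19395694, plus strand), the XPD helicase that opens DNA around the lesion, was called in WT with the smallest amplitude of the 3. Its values ranged from 3.57 to 3.9 at CT12 and from 3.36 to 3.64 at CT20, which overlap. The amplitude was 0.14 ± 0.041 with a peak at CT 12 ± 1.15 h (limma, adjusted p = 0.0354), a 1.21-fold change from trough to peak. The call was lost with CT as a factor (adjusted p = 0.142), with no filter (0.0699), without any replicate number (0.0601 to 0.122) and without any of the WT libraries CT0 replicate 3, CT12 replicates 1, 2 or 3 and CT16 replicate 1. In the authors' deposited tables Ercc2 in WT had q = 0.191 by JTK_CYCLE and 0.183 by BIOCYCLE. Klc3, a kinesin light chain gene that overlaps Ercc2 on the opposite strand, had a WT amplitude of 0.085 ± 0.035 with a peak at CT 8.21 h (limma, adjusted p = 0.142). Gm26852, an antisense gene, also overlaps Ercc2 on the opposite strand, over 10499 bases, and has no level in these data. The part of either gene in the Ercc2 values was not tested. In EpiRE the fitted amplitude of Ercc2 was 0.12 ± 0.052 with a peak at CT 12.2 ± 1.71 h (limma, adjusted p = 0.488). Ercc5, the XPG nuclease that cuts on the 3′ side of the lesion, had amplitudes from 0.067 to 0.098 and fitted peaks between CT 10.8 and CT 14 h in the 4 genotypes. It was not called in any of them (limma, adjusted p = 0.071 in WT), and it was called in WT with the spread shared over all 96 libraries (0.0337) or without CT4 replicate 1 or CT16 replicate 3.

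Xpa (ENSMUSG00000028329; mm10 chr4:46155347-46196311, minus strand), the scaffold that checks the lesion and holds the repair complex, varied in WT in a shape that a cosine did not capture. Its values were 2.81, 2.78, 2.28 and 2.94 at CT0 and 3.24, 3.57, 3.51 and 3.38 at CT4. At CT8 they were 3.14, 2.66, 2.85 and 2.74, at CT12 3.04, 3.30, 3.03 and 3.01, at CT16 3.18, 2.58, 2.93 and 2.92 and at CT20 2.84, 2.87, 2.94 and 2.65. All CT4 libraries lay above all CT0 libraries, and the mean difference was 0.72, a 1.65-fold change. The cosine test missed the threshold (limma, adjusted p = 0.218), while limma's test with the 6 times as a factor passed (adjusted p = 0.0065). That test called 20.3% of all genes in WT (RERE 15.2%, EpiRE 1.8%, BRE 0.283%), and in WT it called 3 of the 10 genes, Xpa, Xpc and Ddb2. In RERE it called Ddb2 alone (adjusted p = 0.0273), and in EpiRE and BRE none of the 10. The call of Xpa was lost without replicate 2 (0.0613) or replicate 3 (0.0657) and held without any single WT library (0.00424 to 0.0235), checks chosen after seeing the data. By the same checks Xpc lost the call without replicate 4 (0.0708), and Ddb2 held it without each replicate number (0.00443 to 0.0431).

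In the other genotypes Xpa at CT4 was 2.69, 2.99, 3.04 and 2.72 in RERE, 3.36, 2.72, 2.95 and 2.97 in EpiRE, and 2.99, 2.79, 2.79 and 3.26 in BRE. The 4 WT libraries lay above all RERE libraries at this time and overlapped those of EpiRE and BRE. CT4 was taken because Xpa was highest there in WT, so this comparison is no test of a difference. The test of the difference in rhythm did not pass for RERE (limma, adjusted p = 0.81), EpiRE (0.4) or BRE (0.874) against WT. That test compares fitted cosines, so it cannot judge a shape that a cosine does not capture. Over the alternative settings with all libraries kept, CT as a factor among them, no contrast passed. The lowest adjusted p there was 0.256 for RERE, 0.363 for EpiRE and 0.145 for BRE (limma). Xpa did not pass as a factor of time in RERE (limma, adjusted p = 0.139), EpiRE (0.758) or BRE (0.793). The gene rests on 100 to 288 reads per library in WT. Its model overlaps that of Ncbp1 on the opposite strand over 17057 bases, and the sources used here do not say if counting used strand. Ncbp1 had WT means of 4.60 at CT0 and 4.44 at CT4 and did not pass as a factor of time (limma, adjusted p = 0.245).

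**Figure D3:**
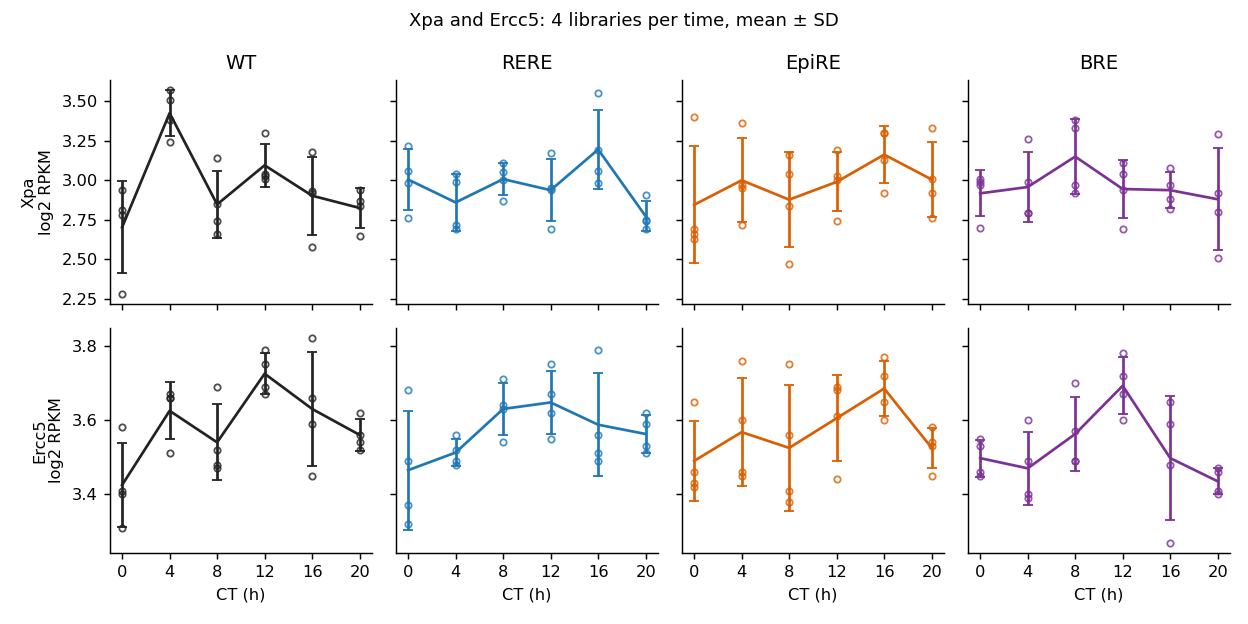
Log2 RPKM of Xpa and Ercc5 against CT (h) in the 4 genotypes; open points are libraries, 4 per time, and lines with bars are means ± SD. The WT libraries of Xpa at CT4 (3.24 to 3.57) lie above those at CT0 (2.28 to 2.94).

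The other members were not called rhythmic by the cosine test in any genotype. Ercc3 in BRE had an unadjusted p of 0.0287 (limma, adjusted p = 0.215). Fitted WT amplitudes were 0.047 ± 0.021 for Ddb1, 0.058 ± 0.026 for Rad23b, 0.033 ± 0.046 for Ercc1, 0.035 ± 0.033 for Ercc3 and 0.053 ± 0.034 for Ercc4, the XPF subunit that cuts with ERCC1 on the 5′ side. Subunits of a complex differed in call: Ddb2 was called in WT and Ddb1 was not, and Ercc2 was called and Ercc3 was not. The call of Ercc2 was lost under several alternatives, and these differences between genes were not tested. Ercc1 had its largest fitted amplitude in RERE, 0.12 ± 0.048 (limma, adjusted p = 0.15), with its lowest time mean at CT12. In the authors' deposited table of JTK_CYCLE, Ddb2 had q = 0.00235 in WT and 0.00714 in RERE, and Xpc had q = 0.0121 in WT. In the authors' deposited table of BIOCYCLE these q-values were 0.115, 0.07 and 0.0635.

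**Figure D4:**
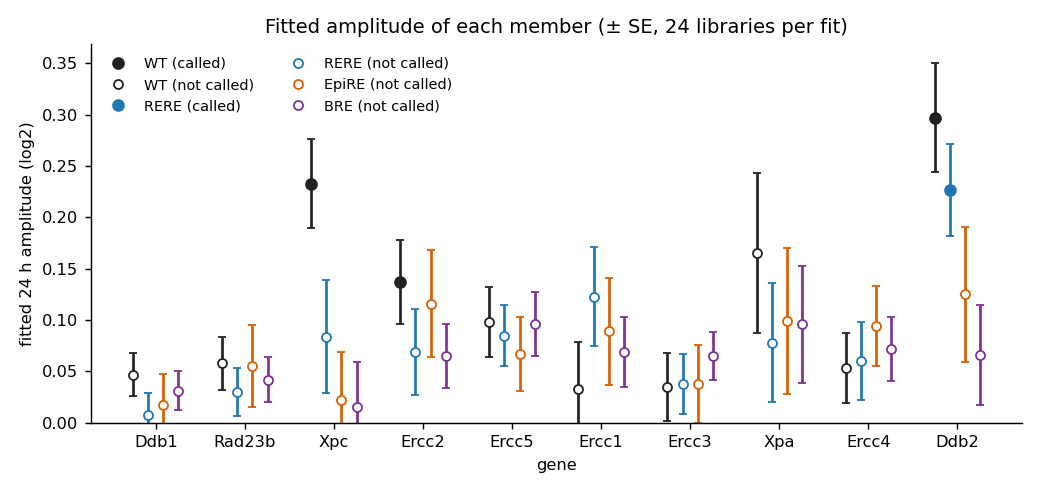
Fitted 24 h amplitude (log2) of each gene in each genotype; points are fits to 24 libraries, bars are SE and filled points have an adjusted p under 0.05. Ddb2 and Xpc have the highest WT amplitudes, 0.30 and 0.23; the fit gives a positive amplitude even where a gene is flat.

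Differences in rhythm between genotypes were tested on the fitted 24 h cosines in 5 contrasts, and none of the 10 genes passed in any of them. By limma 0% of all genes tested passed in RERE against WT, 1.57% in EpiRE against WT, 5.69% in BRE against WT, 1.05% in RERE against EpiRE and 4.19% in RERE against BRE. Unadjusted p-values under 0.05 were found for 1, 1, 4, 1 and 2 of the 10 in the same order, beside 837 of 11051, 1765 of 11059, 2185 of 11016, 1275 of 11042 and 1701 of 10991 genes tested, and limma-voom on recovered reads called 0 members in each. WT serves in 3 of these contrasts and RERE in 3, so they are not independent. The pattern across genotypes was therefore a Ddb2 rhythm called in WT and RERE, and an Xpc rhythm called in WT, without a tested difference between genotypes.

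Levels were compared with CT as a factor. WT, RERE and EpiRE, whose epidermis has intact or Cre-restored Arntl, did not differ by this test in any of the 10 genes. For RERE against WT, limma called 2.14% of all genes (0.787% higher, 1.35% lower) and 0 of the 10, with 0 at an unadjusted p under 0.05. For EpiRE against WT it called 2.23% (0.931% higher, 1.3% lower) and 0 of the 10, and for RERE against EpiRE 0.00906% and 0 of the 10, again with 0 at an unadjusted p under 0.05, and limma-voom also called 0 in each. The 95% intervals of the 10 differences ran from -0.16 to 0.15 for RERE against WT, from -0.13 to 0.16 for EpiRE against WT and from -0.16 to 0.11 for RERE against EpiRE, so larger differences than these were outside the intervals.

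BRE, which lacks K14Cre, differed from WT in 5 of the 10 genes, where 36.9% of all genes tested were called. Of these 2 were higher, beside 12.5% of all genes, and 3 were lower, beside 24.4%. Ddb1 ranged from 6.94 to 7.18 with a median of 7.06 in BRE and from 6.81 to 7.12 with a median of 6.98 in WT. It was higher by 0.085 ± 0.020 (SE, 48 libraries; limma, adjusted p = 0.000706), a 1.06-fold difference. Rad23b ranged from 5.57 to 5.81 (median 5.72) in BRE and from 5.51 to 5.88 (median 5.59) in WT and was higher by 0.083 ± 0.022 (limma, adjusted p = 0.00234). The ranges overlapped for both, and both differences are small.

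Ercc2 was the lowered gene with the smallest p. It ranged from 3.27 to 3.71 (median 3.46) in BRE and from 3.33 to 3.9 (median 3.56) in WT, and the difference was -0.14 ± 0.038 (limma, adjusted p = 0.0037). The call of Ercc2 was lost without replicate 1 (adjusted p = 0.0892). Ercc4 fell by 0.078 ± 0.031 (limma, adjusted p = 0.044) and Xpc by 0.12 ± 0.048 (adjusted p = 0.0473), both near the threshold. Their calls were lost with scaling by the median of ratios (adjusted p = 0.255 and 0.165), without each replicate number for Ercc4 (0.0502 to 0.259), without replicate 1, 2 or 4 for Xpc (up to 0.322), and on leaving out any of 24 of the 48 libraries for Ercc4 and any of 28 for Xpc. Ddb2 was -0.13 ± 0.055 from WT without passing (limma, adjusted p = 0.0528), and it passed with limma-voom (0.0260). The median difference over all genes was -0.045, so that Ercc4 in particular lay close to it.

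Against RERE, 6 of the 10 genes differed in BRE, where 27.5% of all genes were called. Ddb2 was higher in RERE by 0.17 ± 0.050 (limma, adjusted p = 0.0078), Xpc by 0.15 ± 0.049 (0.0148), Ercc2 by 0.12 ± 0.036 (0.0135) and Ercc4 by 0.10 ± 0.035 (0.0246), beside 17.4% of all genes higher. Ddb1 was lower in RERE by 0.066 ± 0.018 (0.00415) and Rad23b by 0.089 ± 0.021 (0.000982), beside 10.1% of all genes lower. With scaling by the median of ratios the calls of Xpc, Ercc2 (both 0.0515) and Ercc4 (0.097) were lost. The call of Ercc4 was lost without each replicate number (0.0549 to 0.101), that of Xpc without replicate 1 (0.0511) or 2 (0.155), that of Ercc2 without replicate 3 (0.15) and that of Ddb1 without replicate 4 (0.0625), while Ddb2 and Rad23b held theirs without each (at most 0.0499 and 0.0376). Acp2, which overlaps Ddb2, had a difference of 0.087 ± 0.061 between RERE and BRE (limma, adjusted p = 0.293), and its part was not tested. BRE libraries serve in both comparisons, so these values share their source with those against WT. Xpa, Ercc1, Ercc3 and Ercc5 passed in neither.

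The summed level of the suprabasal keratinocyte markers ranged from 13.20 to 13.95 (median 13.68) in BRE and from 12.91 to 13.60 (median 13.38) in WT, and that of 20 S phase genes from 6.83 to 8.10 (median 7.43) in BRE and from 6.91 to 8.21 (median 7.72) in WT. Both pairs of ranges overlap, neither sum was tested between genotypes, and their part in the level differences was not tested. Klc3, whose model overlaps Ercc2 on the opposite strand over 1258 bases, was higher in BRE than in WT by 0.11 ± 0.030 (limma, adjusted p = 0.00345), the opposite direction to Ercc2. Gm26852, which overlaps Ercc2 on that strand over 10499 bases, has no level to compare, and the part of either gene was not tested.

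**Figure D5:**
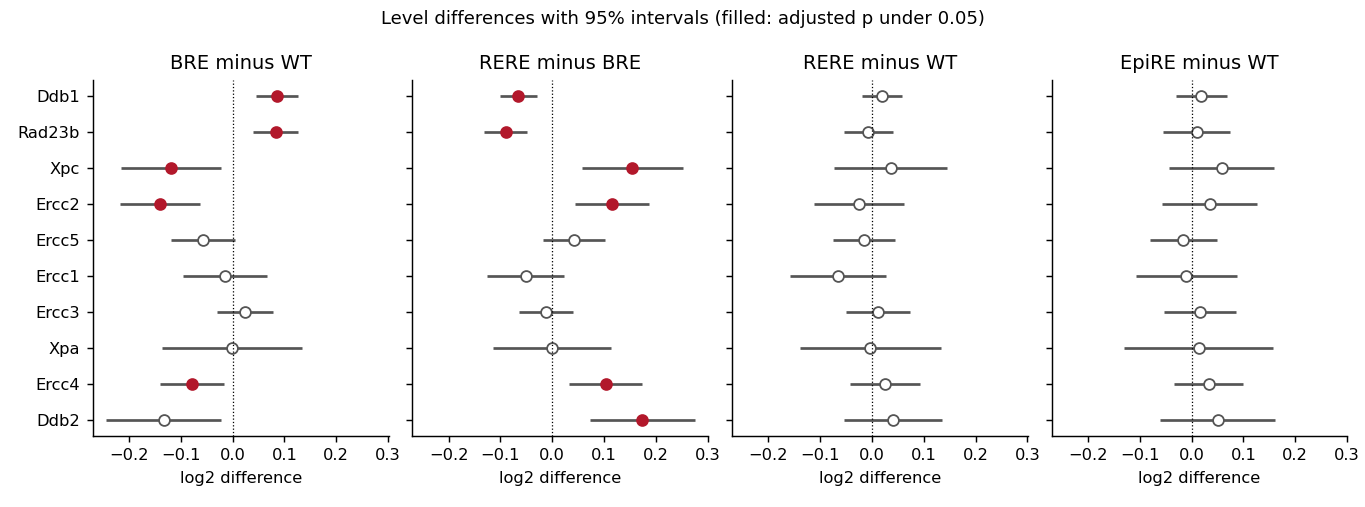
Difference in log2 RPKM between genotypes for each gene; points are limma estimates over 48 libraries, bars are 95% intervals and filled points have an adjusted p under 0.05. Ddb1 and Rad23b lie above 0 and Ercc2, Xpc and Ercc4 below 0 in BRE minus WT, and no interval in RERE minus WT or EpiRE minus WT is called.

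Of the 39 other pathway genes, limma called 15 rhythmic in WT and 12 in RERE, beside 33.1% and 19.4% of all genes tested. It called 0 in EpiRE and in BRE, beside 0% and 1.14%. An unadjusted p under 0.05 was found for 1 in EpiRE and 15 in BRE, beside 1397 of all 11061 and 2071 of all 10970 genes tested. The count called in BRE was 7 without CT8 replicate 4, 6 without CT16 replicate 3, 4 without CT4 replicate 3, 2 without CT20 replicate 3 and 1 without CT20 replicate 1 or 4. By step, the WT calls were 8 of 18 gap-filling genes, 3 of 8 genes of TFIIH, 2 of 3 RPA genes, 1 of 5 recognition genes (Cetn2, a partner of XPC) and 1 of 5 genes of the transcription-coupled branch (Ercc6). The count was 7 to 12 in WT and 6 to 11 in RERE when a replicate number was left out, and 10 to 18 and 10 to 14 when 1 library was. The largest rhythms were in gap-filling genes that also replicate the genome. Pole, the catalytic subunit of polymerase epsilon, had an amplitude of 0.67 ± 0.10 in WT (limma, adjusted p = 0.000151), Lig1, a DNA ligase, 0.48 ± 0.078 (0.000254), Pole2 0.47 ± 0.083 (0.000725) and Pold1, the catalytic subunit of polymerase delta, 0.39 ± 0.072 (0.00103). Their fitted peaks lay between CT 13.2 and CT 13.8 h.

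For several of these gap-filling genes the fitted rhythm differed between BRE and WT. The test of the difference against WT passed for 11 of the 39 (6 to 7 when a replicate number was left out), beside 5.69% of all genes tested. The fitted peak of Pole was at CT 13.8 h in WT, CT 13.2 h in RERE and CT 0.85 h in BRE, with an amplitude of 0.40 in BRE (limma, adjusted p = 7.04e-06 for BRE against WT). The fitted peak of Lig1 was at CT 13.6 h in WT and CT 1.11 h in BRE (2.01e-05), that of Pold1 at CT 13.2 and CT 0.70 h (7.79e-05) and that of Pole2 at CT 13.7 and CT 23.6 h (0.000159). None of these genes was called rhythmic within BRE (limma, adjusted p = 0.0735 for Pole, 0.0778 for Lig1, 0.0913 for Pold1 and 0.121 for Pole2). A rhythm of opposite phase in BRE is thus not established. RERE against BRE passed for 14 of the 39 (5 to 11 when a replicate number was left out), beside 4.19% of all genes tested. EpiRE against WT passed for 4, beside 1.57% of all genes, and RERE against EpiRE for 3, beside 1.05%. Both counts were 0 without EpiRE CT4 replicate 2 or CT12 replicate 1 or 2. The first was also 0 without WT CT4 replicate 4, and the second without EpiRE CT12 replicate 4, CT16 replicate 1 or 4 or RERE CT0 replicate 4, CT4 replicate 2 or 3, CT12 replicate 1 or 2 or CT16 replicate 2 or 4. In level, 12 of the 39 were lower and 0 higher in BRE than in WT, beside 24.4% lower and 12.5% higher of all genes. Xab2 (-0.19 ± 0.030), Pold3 (-0.32 ± 0.057), Polk (-0.22 ± 0.047) and Pole4 (-0.21 ± 0.051) had the smallest p (limma, adjusted p = 2.23e-06, 1.45e-05, 0.000239 and 0.00104). In RERE 7 of the 39 were higher and 0 lower than in BRE, beside 17.4% higher and 10.1% lower of all genes. The gap-filling list shares genes with DNA replication, and the part of the S phase genes in these values was not tested.

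The genes most like the 3 members rhythmic in WT were taken by Pearson r over the 24 means of genotype and CT, which share libraries and scaling. They have the highest r among all other expressed genes, so their r is high by choice and is no test of a relation. For Xpc they were Lpcat2 (r = 0.913), Dnajc11 (0.912) and Arhgap25 (0.844). For Ddb2 they were Zscan26 (0.957), Tnrc6a (0.918) and Crnde (0.916), and for Ercc2 Inppl1 (0.922), Rnf31 (0.903) and Kansl3 (0.879). Among the members themselves, Ddb2 had r = 0.79 with Ercc5, 0.76 with Ercc2 and -0.80 with Rad23b over the same means. These are the highest values and the lowest value of all member pairs.

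Libraries of the same genotype and time can differ in clock state, so each member was set against a clock index. The index is the mean of 10 negative-arm clock genes minus the mean of 6 positive-arm genes. The SD of the index among libraries of the same time was 0.66 in EpiRE, 0.5 in RERE, 0.4 in WT and 0.19 in BRE. Members and index were compared after subtracting the mean of each time. Of 40 relations, 10 genes in 4 genotypes, 0 passed a two-sided permutation test within CT with 100000 resamples after Benjamini-Hochberg adjustment. The smallest p was that of Xpc in WT (Pearson r = 0.55, permutation p = 0.0403, adjusted 0.512; Spearman rho = 0.44, permutation p = 0.0931, adjusted 0.653; n = 24). Without the 2 libraries farthest from the median index r was 0.36.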

How the data were processed

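The submitters' processing notes name mm10, featureCounts 1.6.0, HISAT2 2.2.1, edgeR, SAMtools 1.3.1 and Trimmomatic 0.36, with no order. The deposited values used are log2 RPKM made by the authors, in 4 tables named by CT and replicate per the file headers. Each q-value and p-value that the authors deposited is quoted as theirs. A further 96 library columns, whose codes match no label, were not used. Those codes run in order in WT and RERE and out of order in EpiRE and BRE.

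Whole reads, recovered for 99.84% of genes (100.0% of values within 0.1 read of a whole number), served for depth and limma-voom. The depth sets the read totals; errors come from the spread between mice. limma 3.58.1 (R 4.3.3, empirical Bayes with a mean trend) was fitted to genes averaging 0 log2 RPKM or more. Its p-values were adjusted by Benjamini-Hochberg over all of these genes. The fits were also run on simulated data with independent noise and planted effects larger than most member effects here. That run does not cover effects of their size or variation shared between libraries. Level tests were two-sided. The members and lists were chosen with earlier results of these data known. Named were all members, up to 4 called pathway genes with the smallest p per comparison, 3 genes most like each member rhythmic in WT, and clock reference genes. Alternatives were other filters, log2(RPKM + 1), median-of-ratios scaling, limma-voom, CT as a factor, a shared spread, a replicate block and left-out replicates or libraries. The labels do not say that a replicate number pairs samples.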

Additional observations from a re-analysis of the deposited data

Results flagged for a closer look

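Single libraries stood far from the other 3 of their group in 15 of 240 groups of 4 (10 genes in 24 groups), and chance flags about 1 in 20. For Xpa they were WT CT12 replicate 2 at 3.30 (others 3.01 to 3.04), EpiRE CT0 replicate 1 at 3.40 (2.63 to 2.69) and BRE CT0 replicate 1 at 2.70 (2.97 to 3.01). For Ddb2 they were RERE CT4 replicate 3 at 1.96 (2.22 to 2.27), RERE CT8 replicate 4 at 2.31 (2.44 to 2.46), BRE CT0 replicate 1 at 1.87 (2.16 to 2.2) and BRE CT12 replicate 1 at 2.40 (2.2 to 2.23). For Ercc4 they were WT CT12 replicate 3 at 2.36 (2.56 to 2.59) and WT CT20 replicate 4 at 2.31 (2.53 to 2.57). For Ercc5 they were WT CT4 replicate 3 at 3.51 (3.66 to 3.67) and EpiRE CT0 replicate 1 at 3.65 (3.42 to 3.46). Ddb1 was 6.98 in BRE CT4 replicate 3 (7.04 to 7.05), Ercc1 3.26 in RERE CT0 replicate 1 (3.70 to 3.77), Ercc2 3.42 in RERE CT8 replicate 1 (3.65 to 3.69) and Rad23b 5.88 in WT CT0 replicate 4 (5.67 to 5.69). EpiRE CT0 replicate 1, which stood apart over all genes, is among them for 2 genes, and the EpiRE calls stayed at 0 members without it.

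The rhythm of other pathway genes differed between genotypes by limma's test of the difference. For BRE against WT the adjusted p was 7.04e-06 for Pole, 2.01e-05 for Lig1, 7.79e-05 for Pold1 and 0.000159 for Pole2. For RERE against BRE it was 1.52e-06 for Pole, 7.1e-06 for Pold1, 3.75e-05 for Lig1 and 5.55e-05 for Rfc1. For EpiRE against WT it was 0.0299 for Pole2, 0.0384 for Lig1, 0.0402 for Pold3 and 0.048 for Gtf2h3, and for RERE against EpiRE 0.0365 for Pold3, 0.0489 for Pole and 0.0489 for Pold1.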

How the results depend on the processing

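With scaling by the median of ratios, 1 member (Xpc) differed in rhythm between BRE and WT, and 3 differed in level in each of BRE against WT and RERE against BRE; the cause was not tested. Without a replicate number, members called were 2 in WT, 1 in RERE, 0 to 1 for rhythm in BRE against WT, 2 to 4 for level in BRE against WT and 4 in RERE against BRE. Without 1 library they were 2 to 4 in WT, 1 to 2 in RERE, 0 to 1 for rhythm in BRE against WT, 3 to 6 for level in BRE against WT and 6 in RERE against BRE. RERE gained Ercc1 without RERE CT0 replicate 1 (adjusted p = 0.0453) and Ercc5 without RERE CT0 replicate 3 (0.0357). The other 9 counts were 0 under every alternative run. Fits with a replicate block gave 3, 1, 0 and 0 rhythmic members in WT, RERE, EpiRE and BRE, 0 differing in rhythm in any contrast, and 5 (BRE against WT), 6 (RERE against BRE) and 0 (the others) differing in level, the same counts as without it. Deviations of same-numbered libraries of different genotypes at 1 time had a mean r of 0.020 over 144 pairs, with single pairs from -0.336 to 0.494. Such a mean cannot exclude that some of these libraries share a batch. No called level difference changed sign, and 22 of 39 uncalled ones did in at least 1 alternative. Scaling by the median of ratios moved libraries by -0.095 to 0.099. Xpa rests on the fewest reads in WT, at least 100 per library, which limits its precision.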
